A study of Mus musculus with 4 samples.

Results

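The Cyp2d genes encode a subfamily of the cytochromes P450 of the endoplasmic reticulum, and 8 of the 21827 gene entries in the table used here belong to it by symbol: Cyp2d9, Cyp2d10, Cyp2d11, Cyp2d12, Cyp2d22, Cyp2d26, Cyp2d34 and Cyp2d40. All 8 had a ratio between the sexes. The study compared liver of untreated male and female CD-1 mice, an outbred stock, at 8 weeks of age. RNA of 12 livers per sex was combined into 2 pools of 6 livers, and strand-specific libraries of poly-A RNA were made from the 4 pools. The table gives 1 level per gene and sex and no value per pool, so the spread between pools, and with it any error of a level beyond counting, could not be computed here. Levels are the authors' log2 RPKM (reads scaled to transcript length and sequencing depth, on a log2 scale), which allows levels of different genes to be compared. Ratios and adjusted p-values are the authors' own, and a gene is called where their adjusted p is under 0.05.

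Cytochromes P450 insert an oxygen atom into small lipophilic molecules, with electrons passed on by cytochrome P450 reductase. Humans have 1 functional CYP2D gene, CYP2D6, a main enzyme of drug oxidation in liver, whereas the mouse carries a cluster of Cyp2d genes. Cyp2d9 encodes a testosterone hydroxylase long known for its higher expression in male liver, which depends on the male pattern of growth hormone secretion. Cyp2d22 is usually regarded as the mouse gene closest to human CYP2D6. Individual roles of the other members are less well defined.

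The implied depth of the male libraries was 11239946 reads and that of the female libraries 14717080. The sex labels held, with Xist higher in female and 4 of 4 Y-linked genes male-biased by the authors' deposited table. The 6 hepatocyte markers had levels of at least 9.12 log2 RPKM in both sexes. Some markers of other liver cell types were female-higher by the authors' deposited table, and none was male-higher. They were 3 of 5 Kupffer cell, 3 of 5 stellate cell, 1 of 5 sinusoidal endothelial and 1 of 4 cholangiocyte markers. Of all compared genes, 10.2% were female-higher and 7.21% male-higher, and with lists this short nothing is read from single calls. Of the hepatocyte markers, Apoa1 and Alb were called, 1 in each direction. Summed levels were 7.05 in male and 7.38 in female liver for Kupffer, 6.78 and 7.23 for stellate, 6.55 and 6.73 for endothelial, 1.36 and 1.85 for cholangiocyte, and 1.28 and 1.04 log2 RPKM for lymphocyte markers, of which none was called. No defining marker of these types lay at the floor of the scale. Their part in the Cyp2d results was not tested.

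Cyp2d9 and Cyp2d12 were higher in male liver, and the other 6 members were not called. Cyp2d9 (chr15:82282807-82287257, mm9, plus strand) had a level of 8.17 log2 RPKM in male and 4.41 in female liver, and was 13.26-fold male-biased by the authors' deposited table (adjusted p = 1.27e-67). Both values lie above the level of 1 log2 RPKM that the authors take as liver-expressed; the part in the female value of reads shared with other members, such as Cyp2d10, was not tested. In whole tissue, fewer cells that make an RNA and less of it per cell cannot be told apart. The levels correspond to about 5545 reads in male and 536 in female liver, and counting error alone gives a ratio between 12.4 and 14.8 (exact 95% Clopper-Pearson interval, from depth-scaled reads). This interval, like all those below, leaves out differences between mice and pools.

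Cyp2d12 (chr15:82385528-82389843, mm9, plus strand) had the larger ratio at a far lower level. Its level was 2.36 log2 RPKM in male and -2.25 in female liver, and it was 30.02-fold male-biased by the authors' deposited table (adjusted p = 5.95e-21). Male liver lay above the liver-expressed level of 1 and female liver below it. The female value rests on about 4 reads, against 94 in male liver, so that counting alone allows a ratio between 11.6 and 115. Those few reads leave the size of the ratio uncertain, while the whole interval lies on the male side.

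By size of ratio, Cyp2d12 ranked 22 and Cyp2d9 ranked 65 from the top among the 13763 compared genes. Cyp2d9 combined its ratio with a high level: 3 other male-higher genes, Mup9, Mup20 and Mup21, which encode major urinary proteins, had both a ratio and a male level at or above its own. Of all compared genes, 17.4% were called, 7.21% as male-higher and 10.2% as female-higher, against 2 male-higher and no female-higher of the 8 Cyp2d members. At the adjusted p under 0.01 that the authors use to define sex-biased genes, the shares were 4.16% and 6.05%, and both Cyp2d9 and Cyp2d12 still passed. The median log2 ratio of the members was 0.27, and that of all compared genes -0.02. With 8 members, these counts are a description, and no test was made of the list.

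**Figure D1:**
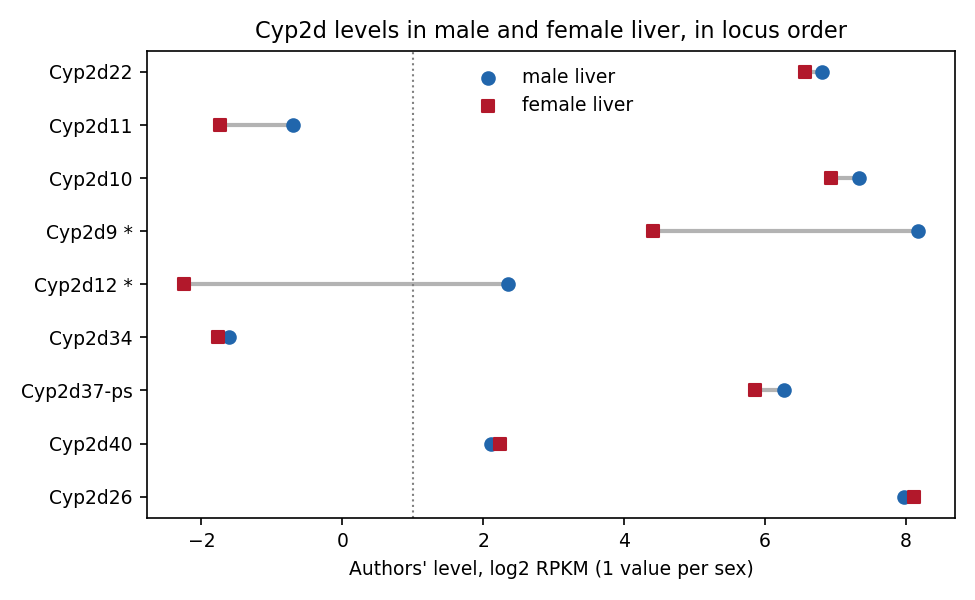
Levels of the 8 Cyp2d members and of the pseudogene entry Cyp2d37-ps in male (circles) and female (squares) liver, in locus order. The x axis is the authors' log2 RPKM with 1 value per sex and no error, the dotted line marks the liver-expressed level of 1, and an asterisk marks genes called at the authors' adjusted p under 0.05. The long bars belong to Cyp2d9 (8.17 against 4.41) and Cyp2d12 (2.36 against -2.25).

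The 3 other abundant members, Cyp2d26, Cyp2d10 and Cyp2d22, were not called. Cyp2d26 (chr15:82620537-82624675, mm9) had 7.97 log2 RPKM in male and 8.11 in female liver. Its level was 1.13-fold female-biased by the authors' deposited table and not called (adjusted p = 0.342). Cyp2d10 (chr15:82233276-82237624, mm9) had 7.33 in male and 6.93 in female liver. It was 1.27-fold male-biased by the authors' deposited table and narrowly missed the threshold (adjusted p = 0.0724). Cyp2d22 (chr15:82200957-82210690, mm9) had 6.81 in male and 6.57 in female liver, a 1.15-fold difference by the authors' deposited table (adjusted p = 0.29). Counting error is small for these genes (2965 to 6931 implied reads per sex), with ratios of male over female between 0.871 and 0.938 for Cyp2d26, 1.25 and 1.38 for Cyp2d10, and 1.13 and 1.24 for Cyp2d22. None of these intervals holds 1, but they cover counting alone, and a missed threshold does not show that the sexes are alike. By counting, a difference of 2-fold or more lay outside all 3.

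The remaining members were scarce. Cyp2d40 (chr15:82590265-82594613, mm9) had 2.12 log2 RPKM in male and 2.23 in female liver, and was not called by the authors' deposited table (1.08-fold higher in female liver, adjusted p = 0.789). Cyp2d11 (chr15:82219584-82224452, mm9) had -0.70 in male and -1.74 in female liver, below the liver-expressed level in both sexes. By the authors' deposited table it was 2.17-fold higher in male liver but not called (adjusted p = 0.13), and it rests on about 10 male and 6 female reads, which allow a ratio between 0.719 and 7.31. Cyp2d34 (chr15:82446395-82451337, mm9) had -1.60 and -1.77 (adjusted p = 1 by the authors' deposited table), or about 5 and 6 reads, which allow a ratio between 0.263 and 4.29. A difference was not detected for these 2 members, and both intervals hold ratios on either side of 1.

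The order of the members by level differed between the sexes through Cyp2d9 and Cyp2d12. In male liver it ran Cyp2d9 (288 RPKM), Cyp2d26 (251), Cyp2d10 (161), Cyp2d22 (112), Cyp2d12 (5.12), Cyp2d40 (4.34), Cyp2d11 (0.615) and Cyp2d34 (0.329). In female liver it ran Cyp2d26 (277 RPKM), Cyp2d10 (122), Cyp2d22 (94.9), Cyp2d9 (21.3), Cyp2d40 (4.71), Cyp2d11 (0.299), Cyp2d34 (0.293) and Cyp2d12 (0.210). Cyp2d9 thus moved from rank 1 to rank 4 and Cyp2d12 from rank 5 to rank 8. Whether neighbours in these orders differ beyond the spread between pools could not be assessed. By counting alone (exact Poisson intervals of the level from the implied reads), Cyp2d9 in male liver (281 to 296 RPKM) lay above Cyp2d26 (243 to 258). Cyp2d11, Cyp2d34 and Cyp2d12 overlapped in female liver (0.0941 to 0.558, 0.0901 to 0.535 and 0.0448 to 0.421 RPKM), as did Cyp2d11 and Cyp2d34 in male liver (0.268 to 1.03 and 0.0870 to 0.625).

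Summed over the 8 members, the Cyp2d level was 822 RPKM in male and 521 RPKM in female liver, a ratio of 1.58. Cyp2d9 made up 35.1% of the male sum and 4.09% of the female sum, and 88.8% of the difference between them. Without Cyp2d9 the ratio of the sums was 1.07, and without Cyp2d26, the main member in female liver, it was 2.34. Cyp2d26 made up 30.5% of the male and 53.2% of the female sum, Cyp2d10 19.5% and 23.5%, and Cyp2d22 13.6% and 18.2%. Cyp2d12, for all its ratio, contributed 0.623% and 0.0404%. Among the 94 P450 entries with a level, Cyp2d9 ranked 9 in male and 45 in female liver, and Cyp2d26 ranked 11 and 12. The 8 members together accounted for 5.80% of the summed P450 level in male and 3.91% in female liver; this comparison was chosen after values had been seen.

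**Figure D2:**
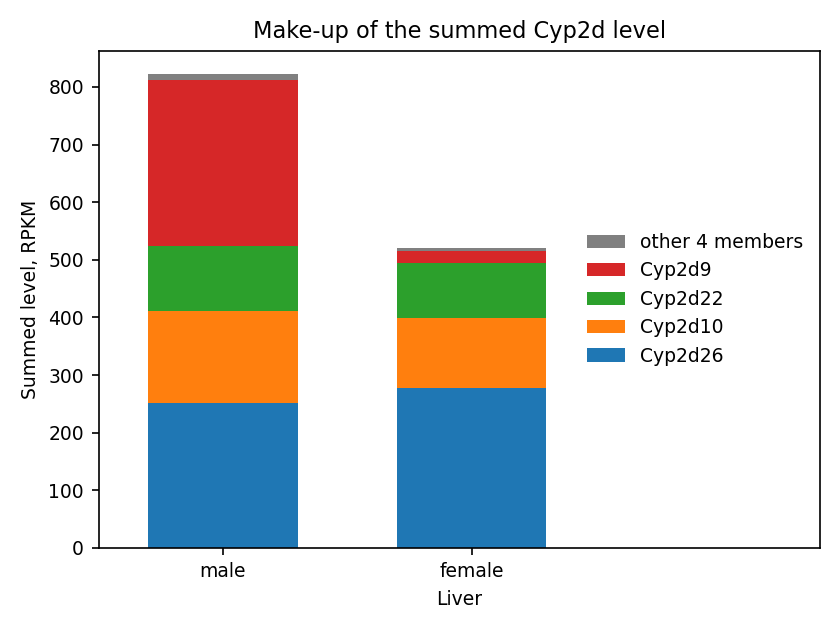
Summed level of the 8 Cyp2d members in male and female liver (y axis, RPKM from 0), stacked by gene, with no error because each sex has 1 value. The male bar reaches 822 and the female bar 521 RPKM, and the segment of Cyp2d9 (288 against 21.3) accounts for most of the gap.

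The 8 genes lie in 1 cluster of 423.7 kb on chromosome 15 (82200957 to 82624675, mm9) with no entry of another gene family inside it. From its start the order is Cyp2d22, Cyp2d11, Cyp2d10, Cyp2d9, Cyp2d12, Cyp2d34, the pseudogene entry Cyp2d37-ps, Cyp2d40 and Cyp2d26. The log2 ratios of the authors' deposited table along this order were 0.20, 1.12, 0.34, 3.73, 4.91, 0.10, 0.25, -0.11 and -0.18. The called members are next to each other in the table, 98.3 kb apart, with no other entry between them. They are also the only 2 members on the plus strand, the other 6 being on the minus strand. The summed level of the plus-strand pair was 293 RPKM in male and 21.5 in female liver, and that of the 6 minus-strand members 528 and 499.6 RPKM, a ratio of 1.06. Position and strand were examined after the ratios were known, and no test was made of either.

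Genes on both sides of the cluster were counted as well. Of 28 other entries within 500 kb, 21 could be compared and 2 were called, beside 17.4% of all compared genes. With a list this short, nothing is read from that count. Cenpm, a centromere protein gene 125.8 kb before the cluster, was 3.93-fold female-biased by the authors' deposited table (adjusted p = 1.79e-08). Pmm1, a phosphomannomutase gene 409.7 kb before it, was 3-fold male-biased by the authors' deposited table, at the edge of the threshold (adjusted p = 0.0498). The nearest compared gene on either side, Ndufa6 (a respiratory chain subunit gene, 16.2 kb away) and Tcf20 (a transcription regulator gene, 14.4 kb away), had differences of 1.01-fold (female side) and 1.33-fold (male side) by the authors' deposited table and were not called (adjusted p = 0.956 and 0.0523).

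**Figure D3:**
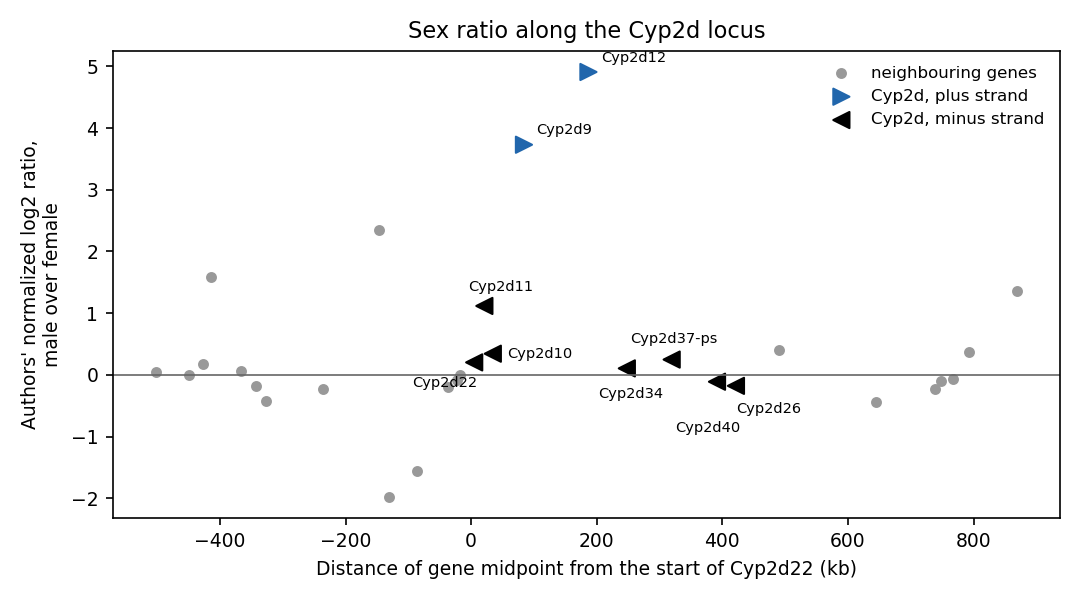
Authors' normalized log2 ratio, male over female (y axis), against the distance of each gene's midpoint from the start of Cyp2d22 in kb (x axis). Triangles are Cyp2d entries pointing along their strand, blue where called, and grey points are the 21 compared neighbours within 500 kb. Cyp2d9 (3.73) and Cyp2d12 (4.91) stand above the minus-strand Cyp2d entries, which lie between -0.18 and 1.12.

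Promoter sequence was examined because members with different sex ratios sit in 1 cluster and have similar transcripts. The RefSeq table (GRCm38.p6) had a promoter window for 5 of the 8 members, Cyp2d9, Cyp2d10, Cyp2d11, Cyp2d26 and Cyp2d40. It had none for Cyp2d12, the other male-higher member, so no motif could be looked for there. The 150 bases before the annotated start are shown for the male-higher Cyp2d9, for its closest relative by promoter (Cyp2d11), and for the 2 abundant members that were not called and had an entry (Cyp2d10 and Cyp2d26). Capitals mark TTCCGG (on the other strand, the core bound by ETS factors such as GABP), CAAAGGGCA (a run resembling the direct repeat bound by HNF4A) and TATAAA on either strand.
Cyp2d9, chr15:82452227-82452376, plus strand: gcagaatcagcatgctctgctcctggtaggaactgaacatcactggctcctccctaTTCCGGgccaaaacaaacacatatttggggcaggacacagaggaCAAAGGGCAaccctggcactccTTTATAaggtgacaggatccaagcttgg
Cyp2d11, chr15:82394023-82394172, minus strand: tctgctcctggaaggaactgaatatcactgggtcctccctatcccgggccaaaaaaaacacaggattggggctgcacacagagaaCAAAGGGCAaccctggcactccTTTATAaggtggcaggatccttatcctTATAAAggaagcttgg
Cyp2d10, chr15:82407195-82407344, minus strand: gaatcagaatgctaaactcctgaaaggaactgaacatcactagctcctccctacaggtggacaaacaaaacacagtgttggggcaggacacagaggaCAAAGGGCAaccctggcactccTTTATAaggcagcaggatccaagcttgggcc
Cyp2d26, chr15:82794246-82794395, minus strand: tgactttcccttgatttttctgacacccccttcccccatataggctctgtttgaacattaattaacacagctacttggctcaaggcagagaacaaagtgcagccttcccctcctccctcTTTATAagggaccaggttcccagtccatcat

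The upstream 250 bases of Cyp2d9 and Cyp2d11 were 93.6% identical over 234 aligned bases, those of Cyp2d9 and Cyp2d10 85.0% over 246, and those of Cyp2d9 and Cyp2d26 65.9% over 217. TATAAA was found in all 5 windows. It lay at bases -28 to -23 in Cyp2d9 and -31 to -26 in both Cyp2d10 and Cyp2d26. In Cyp2d11 it lay at -43 to -38 and -16 to -11. In Cyp2d40 it lay at -91 to -86 from the RefSeq start. That start lies downstream of the start of the Cyp2d40 entry measured here, unlike in the other windows. Positions in Cyp2d40 therefore cannot be compared with those of the others. TATAAA was found in 12.4% of the 32851 promoters of the table. CAAAGGGCA was found in Cyp2d9, Cyp2d10, Cyp2d11 and Cyp2d40 and in 0.399% of all promoters. Pairs of these windows are 80.2% to 93.6% identical, so their matches are not independent, and nothing is read from the comparison with all promoters. CCGGAA was found in Cyp2d9 alone of the 5, at bases -94 to -89, and in 12.0% of all promoters; its letters hold the only CpG of the 250 bases. Within these 6 bases Cyp2d11 differs by T58C alone, and over all aligned bases the pair has 15 mismatches, with positions counted from 1 at the 5′ end of the printed Cyp2d9 stretch. CAAAGGGCA, the core in Cyp2d9 and the count of CpG were chosen after the sequences had been seen. Of the 6 motifs chosen earlier, only TATAAA matched. TTCNNNGAA (STAT5), CAAAGTCCA (HNF4A), CCGGAAG (ETS), TTGCGCAA (C/EBP) and CACGTG (E-box), searched on both strands, were in none of the 5 windows and in 7.02%, 0.384%, 6.91%, 0.164% and 6.02% of all promoters. The ETS motif contains the shorter core, so those matches overlap. A match is a run of letters and not a measured binding site, and Cyp2d11, with the most similar promoter, was too scarce for its ratio to be fixed. The sequences are those of the reference assembly, and those of the outbred mice used here were not examined.

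Transcripts of the members are similar enough that short reads can fall on several of them. Cyp2d9, Cyp2d10, Cyp2d11, Cyp2d12 and Cyp2d34 were 88.4% to 94.2% identical in their 10 pairs, and the 26 other pairs among the 8 members and Cyp2d37-ps 74.1% to 86.4%. Cyp2d9 and Cyp2d12 were 91.4% identical to each other, while Cyp2d9 and Cyp2d11 were 93.4% identical. Of all windows of 36 bases in the transcript, 41.4% of those of Cyp2d9, 31.4% of Cyp2d12, 52.5% of Cyp2d11, 50.5% of Cyp2d10, 14.2% of Cyp2d26 and 8.96% of Cyp2d22 also occurred in a transcript of another gene. At 75 bases, the shares of the members ran from 2.30% to 26.7%. At 36 bases, Cyp2d9 and Cyp2d12 shared more windows with each other than with any other member, 17.9% of those of Cyp2d9 and 18.6% of those of Cyp2d12. At 75 bases, all 84 shared windows of Cyp2d12 were shared with Cyp2d9. Cyp2d9 shared more windows of this length with Cyp2d10 (90) than with Cyp2d12 (84). The level of Cyp2d12 was 1.78% of that of Cyp2d9 in male and 0.988% in female liver. The female percentage rests on about 4 reads of Cyp2d12, so nothing is read from the difference between the percentages. Read length and the treatment of reads that match several genes are not given in the sources used here, so the part of shared reads in the values of single members was not tested.

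**Figure D4:**
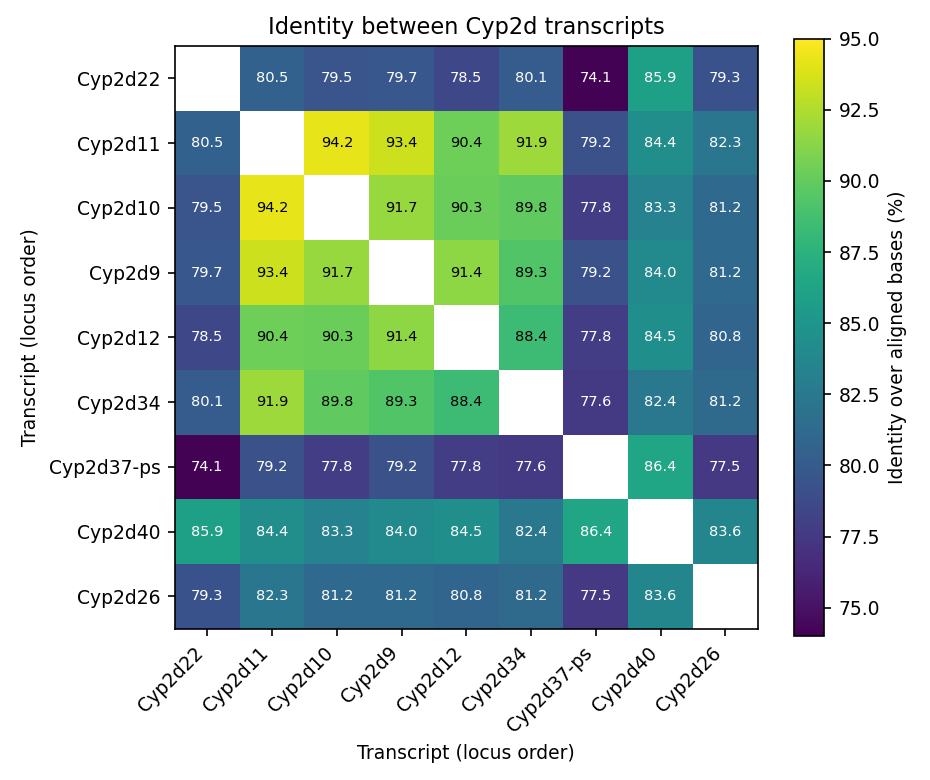
Identity between the transcripts of the 8 Cyp2d members and Cyp2d37-ps in locus order on both axes, as a percentage of aligned bases (colour and printed value). Cyp2d11, Cyp2d10, Cyp2d9, Cyp2d12 and Cyp2d34 form a block of 88.4% to 94.2%, and no other pair exceeds 86.4%.

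The genes nearest to the called members in the plane of male and female log2 RPKM were named by Euclidean distance over these 2 values. For Cyp2d9 they were Cyp7b1 (distance 0.68), an oxysterol hydroxylase gene, Mup9 (0.73), Selenbp2 (0.77), a selenium-binding protein gene, Gstp1 (0.79), a glutathione S-transferase gene, and Hsd3b5 (0.84), a steroid dehydrogenase gene. All 5 were male-higher by the authors' deposited table, with ratios from 7.53-fold to 23.05-fold, and adjusted p from 3.11e-89 to 6.73e-44, a direction that nearness in both levels largely fixes. For Cyp2d12 they were Capn8 (0.44), a calpain gene, Tff3 (0.52), a trefoil factor gene, Pnlip (0.61), Scara5 (0.62), a scavenger receptor gene, and Clps (0.77). Pnlip and Clps encode pancreatic lipase and its cofactor colipase, and were 16.09-fold and 21.3-fold male-biased by the authors' deposited table. Whether RNA of another tissue has any part in the level of Cyp2d12 was not tested.

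**Figure D5:**
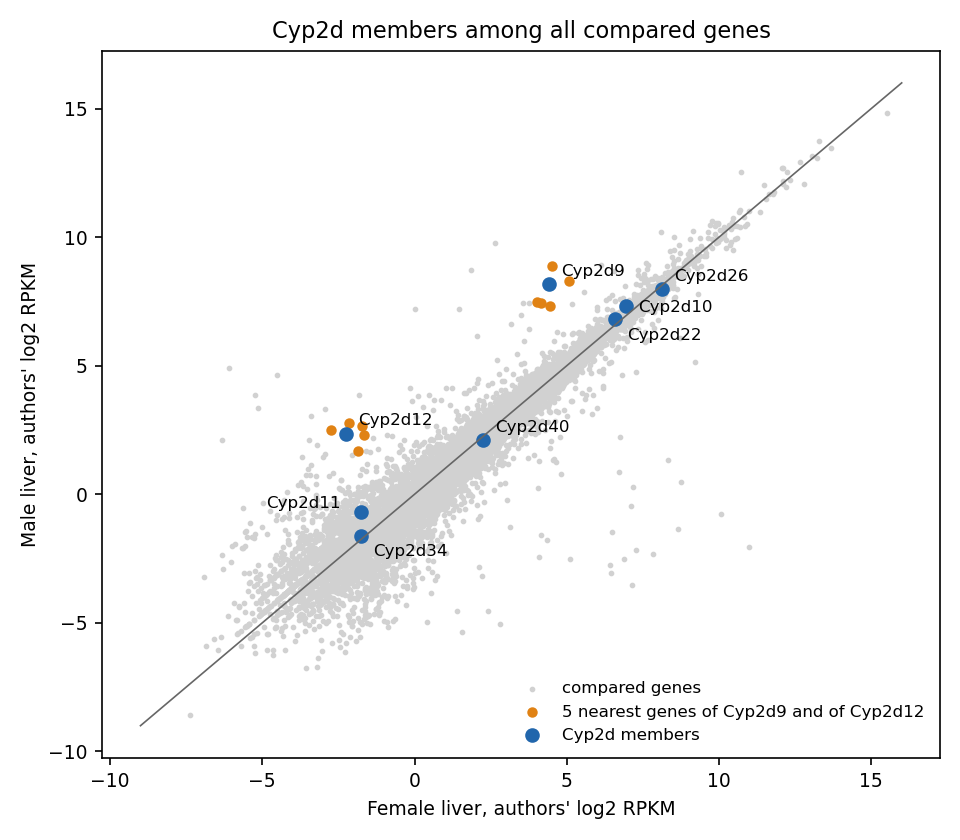
Authors' log2 RPKM in female (x axis) and male (y axis) liver for all compared genes with a level (grey), the 8 Cyp2d members (blue) and the 5 genes nearest to Cyp2d9 and to Cyp2d12 (orange), with the line of equal levels. Cyp2d9 and Cyp2d12 lie above the main cloud at high and low level, and the other 6 members lie within it.

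Of the 7 genes listed as partners of P450 enzymes, none passed the threshold by the authors' deposited table. The list holds Por, Cyb5, Cyb5b, Cyb5r1, Cyb5r3, Pgrmc1 and Pgrmc2. With 17.4% of all compared genes called and a list this short, nothing is read from that count, and a count at an unadjusted p cannot be given because the table holds adjusted values only. Por, the reductase of all microsomal P450 enzymes, had 5.58 log2 RPKM in male and 5.68 in female liver (1.11-fold female-biased by the authors' deposited table, adjusted p = 0.42). Cyb5, the cytochrome b5 gene and the most abundant of the list, had 9.97 and 10.08 (1.12-fold female-biased by the authors' deposited table, adjusted p = 0.399). Cyb5r3, a cytochrome b5 reductase gene that lies 359.2 kb after the Cyp2d cluster, was closest to the threshold (1.29-fold male-biased by the authors' deposited table, adjusted p = 0.0552).

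Regulators linked to Cyp2d or to sex-dependent P450 transcription went both ways, with 3 male-higher and 2 female-higher genes of 14 by the authors' deposited table (7.21% and 10.2% of all compared genes). In this system, pulses of growth hormone activate STAT5B in male liver, and BCL6 and CUX2 are repressors with opposite sex bias. Bcl6 had 3.78 log2 RPKM in male and 2.59 in female liver and was 2.20-fold male-biased by the authors' deposited table (adjusted p = 2.11e-07). Cux2 had -2.85 in male and 2.13 in female liver and was 36.32-fold female-biased by the authors' deposited table (adjusted p = 2.89e-36). Ghr, the growth hormone receptor gene and the most abundant of the list (8.39 and 7.99 log2 RPKM), was 1.30-fold male-biased by the authors' deposited table (adjusted p = 0.0423). Ubp1, whose product has been linked to the Cyp2d9 promoter, was 1.33-fold male-biased by the authors' deposited table (adjusted p = 0.0374), and Stat5a was 1.46-fold female-higher (adjusted p = 0.0406). The calls of Ghr, Ubp1 and Stat5a are lost at an adjusted p under 0.01. Stat5b (3.92 in both sexes), Hnf4a (7.29 and 7.38) and Gabpa (5.07 and 5.15 log2 RPKM), a subunit of GABP, were not called by the authors' deposited table (adjusted p = 0.827, 0.607 and 0.701).

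The other Cyp2 subfamilies of the table lay more on the female side. Of their 38 entries, 29 could be compared, whereas all 8 Cyp2d members could. Of these 29 genes, 6 were male-higher (20.7%) and 15 female-higher (51.7%) by the authors' deposited table, beside 7.21% and 10.2% of all compared genes. The median log2 ratio of the 29 was -0.64, against 0.27 for the Cyp2d members. In Cyp2c, 8 of 13 were female-higher and 3 male-higher; in Cyp2a 3 of 4 and in Cyp2b 3 of 3 were female-higher, and in Cyp2j 1 of 3 was male-higher. The single compared genes of Cyp2f and Cyp2u were male-higher, that of Cyp2g was female-higher, and those of Cyp2e, Cyp2r and Cyp2s were not called. The difference between the Cyp2d members and these subfamilies was not tested.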

How the data were processed

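The 4 pooled libraries (2 per sex, each of 6 livers) are given in 1 deposited table with 1 value per sex. The submitters' processing notes name Bowtie, edgeR and mm9. Their versions and roles, and the counting of reads, are not given in the sources used here. Per the file headers, the authors deposited log2 RPKM per sex, a normalized log2 ratio of male over female, its linear ratio, a signed fold change used as a score, an adjusted p-value and a liver-expressed flag. No pool is separate, so the planned test on counts and leaving out each pool could not be run, and the fallback, the authors' adjusted p under 0.05, was used. Their ratio is lower than the plain difference of log2 RPKM by a median of 0.03 (a shift of -0.03). Proteins were not aligned because no protein sequences were used here; transcripts were aligned instead.

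The compared genes are 13763 of the 21827 entries. Left out were 6590 at the lowest possible value in both sexes and 14 without a level. Also left out were 1460 above it in 1 sex only whose ratio is given as 1. Genes at the floor in 1 sex with another ratio stayed in, such as Adarb2 (-2.02 in male, -5.99 in female liver, log2 ratio 3.97). The shares of called genes and the ranks by ratio include such genes. An adjusted p of 0.026 attached to the unmeasured genes was not used. Such genes would pass the threshold of 0.05 if they were kept. The called genes Ghr, Ubp1, Stat5a and Pmm1 have larger authors' adjusted p-values than this (0.0423, 0.0374, 0.0406 and 0.0498), so their calls are weak. Depth (11239946 and 14717080 reads) was implied by the floor, taking the value added before the log as 1 read. Of 4668 floor genes with a transcript length in GENCODE vM21, 74.2% matched the length implied by the floor to within 2%. Reads computed this way are approximate, were available for 7 of 8 members (not Cyp2d40, whose accession was unmatched), and give exact 95% intervals for counting error only. Reads are scaled by implied depth there, not by the authors' normalization. The pools come from separate mice, but the table does not show their spread. The recovery of depth and reads and the intervals were tested on simulated data.

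Promoters are from RefSeq (GRCm38.p6) and transcripts from GENCODE vM21, aligned globally with Biopython 1.88; other coordinates are mm9 with a 1-based start. Cyp2d40 and Cyp2d37-ps transcripts were matched by symbol. Promoters and transcripts are reference sequences, so identities, motif matches and shared windows may differ in the outbred mice. Python 3.11.15, pandas 2.3.3, numpy 2.4.6 and scipy 1.17.1 were used. The members and lists were chosen with earlier results of these data known. Named genes are all Cyp2d entries, the called and the most abundant genes of each list, called neighbours, and the 5 genes nearest in level to the member with the highest male level and to the one with the largest ratio; Stat5b, Hnf4a, Gabpa, Por, Cyb5r3, Ndufa6, Tcf20, Mup20 and Mup21 fall outside this rule, sex and marker checks apart, and were chosen after their values were seen. Alternatives were the plain difference of levels, other pseudocounts (1 and 0.1), centring, a stricter threshold, a minimum fold of 1.5, a level filter, another window and the omission of each member.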

Additional observations from a re-analysis of the deposited data

Results flagged for a closer look

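Cyp2d37-ps, annotated as a pseudogene and not counted among the 8 members, carried a level well above the floor: 6.27 log2 RPKM in male and 5.86 in female liver (chr15:82519564-82520929, mm9). It was singled out because it is a signal outside the 8 members. Its level lay between those of Cyp2d22 and Cyp2d12 in male liver, and between those of Cyp2d22 and Cyp2d9 in female liver. Cyp2d37-ps was not called by the authors' deposited table (1.19-fold higher in male liver, adjusted p = 0.281). Of its windows of 36 bases, 7.86% occur in a transcript of another gene, and the part of reads from other genes in its level was not tested. RPKM there depends on the length the authors used, and that length was not given in the sources used.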

How the results depend on the processing

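Across 71 alternative values, 65 stayed within the counting interval or within 1.5 times the reported count, and none reversed a called ratio. For sums, shares and Cyp2d40 the limit was 1.1 times or 0.1 on the log2 scale. Many of these 65 could hardly have moved, so the tally is not a measure of robustness. A gene that was not called cannot become called at the stricter adjusted p under 0.01. Leaving out a scarce member such as Cyp2d11 or Cyp2d34 barely changes the sum. The level filter removes only these scarce members before shares are taken. The log2 ratio of Cyp2d12 fell from 4.91 to 2.34 with log2(RPKM + 1), since a pseudocount of 1 exceeds its female level. That of Cyp2d11 went from 1.12 to 0.31 in the same way, within its wide counting interval. The ratio of summed levels was 1.07 without Cyp2d9 and 2.34 without Cyp2d26, against 1.58. The number of called neighbours went from 2 to 1 in the window of 250 kb and to 1 at an adjusted p under 0.01. That of called regulators went from 5 to 2 at the same threshold. Stricter thresholds for neighbours, regulators, P450 partner genes and other Cyp2 genes were added after seeing the data. So was the sum with Cyp2d37-ps. Cyp2d9 and Cyp2d12 were still called at an adjusted p under 0.01, the number of called members stayed at 2 under the alternatives that give a count, and the other alternatives give no call. No paired analysis was possible because the table gives 1 value per sex, and leaving out pools was not run for the same reason. Depth limits Cyp2d11, Cyp2d34 and the female level of Cyp2d12, which rest on 10 reads or fewer in a sex.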
